A study of Homo sapiens with 13 samples.

Results

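The E2F and RB family was followed through 13 poly(A) RNA sequencing libraries of the human lung adenocarcinoma line A549. The 10 genes were taken by name from the deposited count tables, and all 10 were listed and measured in each of the 3 tables, which hold 59653, 17976 and 39735 named genes. They are E2F1, E2F2 and E2F3 (activator E2Fs), TFDP1 (their DNA-binding partner DP1), E2F4 (a repressor-type E2F), E2F7 and E2F8 (atypical E2Fs) and the pocket proteins RB1, RBL1 (p107) and RBL2 (p130). The study altered a gene unit on chromosome 17 made of PRR11 and SKA2 with 2 microRNAs (miR-301a, miR-454), and asked how it acts on gene expression in lung cancer cells.

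Every group was 1 library of A549 cells and no group had a replicate. In the first set, a guide RNA repressed the promoter that PRR11 and SKA2 share (CRISPRi_PRR11+SKA2 promoter-sgRNA#1), and the control carried a mock guide (CRISPRi_Mock sgRNA). In the second set, lentivirus with the CMV promoter carried PRR11 (LV-PRR11), SKA2 (LV-SKA2) or both (LV-P+S), and the control carried the empty vector (LV-vector-PS). In the third set, lentivirus of the same design carried miR-301a (LV-miR301a), miR-454 (LV-miR454) or both (LV-3+4), against LV-vector-34. In the fourth set, the precursor of miR-301a (CRISPRd_miR301a-#2) or of miR-454 (CRISPRd_miR454-#1) was knocked out, against CRISPRd_Control. The cells of the first 3 sets were stable lines, and the sources used here do not say whether each line was 1 clone or a pool. The 3 lentiviral comparisons within a set share 1 control library, and so do both knockouts.

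Counts per library summed to between 18672601 and 21811946, so that 3 counts were worth 0.138 to 0.161 CPM (counts scaled to library size and normalised within each table). In the CRISPRi library PRR11 stood at 0.643% of its mock level (95% counting interval 0.351 to 1.08%) and SKA2 at 0.292% (0.0948 to 0.683%). The overexpression labels were not borne out by the counts of the named genes in several libraries. The sources used here do not say whether such counts include reads of the transgene. PRR11 stood at 109% and 110% of vector in LV-PRR11 and in the library labelled LV-P+S, and SKA2 at 84.4% and 88.8% in the libraries labelled LV-SKA2 and LV-P+S. Reads on the MIR454 locus numbered 468 in LV-miR454, 0 in the library labelled LV-3+4 and 28 in that labelled LV-miR301a. Reads on MIR301A numbered 34 and 29 in those 2 libraries, and both loci had 0 in the other libraries whose tables list them, so these counts check neither knockout. Of 12 A549 markers, all had at least 1 CPM in each library except KRT19, with 0 counts in CRISPRd_miR301a-#2 and 1 in CRISPRd_miR454-#1. Keratins KRT8 and KRT18 lay between 3013 and 7198 CPM throughout.

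In a resting cell, RB1, RBL1 and RBL2 hold E2F proteins on promoters and keep genes of DNA replication off. When cyclin-dependent kinases phosphorylate the pocket proteins, the activator E2Fs with DP1 are released and switch on genes for entry into S phase. Several family members, E2F1, E2F2, E2F7, E2F8 and RBL1 among them, are themselves E2F target genes, and E2F7 and E2F8 repress the same promoters later in S phase. RBL2 and E2F4 also join the MuvB core in the DREAM complex, which silences cell cycle genes in quiescent cells. A549 cells keep RB1 but have lost the CDKN2A locus, which encodes the RB kinase inhibitor p16.

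Levels per length of transcript, as CPM divided by the length in kilobases of the longest coding transcript, put E2F4 and TFDP1 in the first 2 places in every library. E2F4 stood first in 12 of the 13 libraries and TFDP1 in 1, the mock library, at 39.6 CPM per kb against 35.3 CPM per kb for E2F4. E2F1 came next in 12 libraries, and in the CRISPRi library it stood at 6.30 CPM per kb beside RB1 at 6.57 and RBL2 at 6.19 CPM per kb. E2F7 was last in 11 libraries and E2F2 in the other two, which were the CRISPRi library at 0.332 CPM per kb and LV-miR454 at 3.50 CPM per kb. Outside the CRISPRi set, RBL2 ranked above RB1 in 10 of 11 libraries. LV-miR454 was the exception. RB1 and RBL2 overlap genes on the opposite strand, LPAR6 and AKTIP among them, and so do E2F3, E2F8 and RBL1. The overlap was taken over whole gene spans and not over exons, and the sources used here state no strand setting. Whether reads of such neighbours entered the counts of these members was not tested.

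Repression of the PRR11 and SKA2 promoter came with lower levels of the activator E2Fs, by different amounts. E2F1, the activator with the most RNA, had 15.8 CPM in the CRISPRi library against 66.0 CPM in the mock library (348 and 1355 counts), 4.18-fold lower (95% counting interval 3.71 to 4.72). Its levels in the other treated and control libraries lay between 49.2 and 79.7 CPM, so the CRISPRi library stood alone. E2F2 had 1.72 CPM in the CRISPRi library against 17.6 CPM in the mock library (38 and 362 counts), 10.2-fold lower (7.31 to 14.7). It was the largest fold of the family in this set, and E2F2 had 13.6 to 20.3 CPM in the remaining libraries. E2F3, the third activator, had 24.4 CPM in the CRISPRi library against 31.8 CPM in the mock library, 1.301-fold lower (1.16 to 1.46). Its 13 levels spanned only 22 to 31.8 CPM.

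The partner TFDP1 had 70.9 CPM in the CRISPRi library against 104.8 CPM in the mock library, 1.48-fold lower (1.38 to 1.58). E2F4 had 68.2 CPM in the CRISPRi library against 74.0 CPM in the mock library, 1.09-fold lower (1.01 to 1.17). E2F4, which also binds DNA with a DP partner, was thus the E2F nearest to its control level. The atypical E2F8 had 1.81 CPM in the CRISPRi library against 14.3 CPM in the mock library (40 and 294 counts), 7.89-fold lower (5.66 to 11.3). E2F7 had 7.75 CPM in the CRISPRi library against 15.6 CPM in the mock library (171 and 320 counts), 2.01-fold lower (1.66 to 2.43).

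Among the pocket proteins RBL1 stood apart. It had 9.48 CPM in the CRISPRi library against 31.2 CPM in the mock library (209 and 642 counts), 3.30-fold lower (2.82 to 3.87). RB1 had 31.5 CPM in the CRISPRi library against 38.4 CPM in the mock library, 1.22-fold lower (1.10 to 1.35). RBL2 had 30.4 CPM in the CRISPRi library against 31.2 CPM in the mock library, a ratio whose interval held equality (1.03-fold lower, 0.92 to 1.15). RBL2 was at 46.0 to 80.1 CPM in the libraries of the other tables, which were normalised separately.

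A gene was called in a pair of libraries when the ratio of CPM plus 0.5 reached 2-fold and the exact counting interval of the ratio excluded equality. By that rule 4 of the 10 family genes were called lower in the CRISPRi library (E2F1, E2F2, E2F8 and RBL1) and 0 higher, while of all measured genes 5.97% were called lower and 9.43% higher. E2F7 lay just outside the call, at -0.96 on the log2 scale of CPM plus 0.5, and the smallest change among those called was RBL1 at -1.67. The interval lay wholly below equality for 9 of the 10, all but RBL2, against 38.7% of all measured genes, and for 8 under each of 3 other scalings. The median log2 ratio of the family was -0.76, against -0.04 over all measured genes. With 1 library per group these intervals cover counting error only, and no test between conditions was possible. In bulk RNA, fewer dividing cells and less RNA of these genes per cell cannot be told apart.

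The balance of the family differed between the libraries of this set. Of the summed level per kb of the 6 E2F genes, the activators made up 25.5% in the CRISPRi library against 46.4% in the mock library. E2F4 made up 70.4% in the CRISPRi library against 45.0% in the mock library, and the atypical pair 4.04% against 8.63%. Of the 3 pocket protein genes, RBL1 made up 11.6% in the CRISPRi library against 27.7% in the mock library. RBL2 made up 42.9% in the CRISPRi library against 32.02% in the mock library, and RB1 45.5% against 40.3%. The summed E2F level was 46.2 CPM per kb in the CRISPRi library against 78.5 CPM per kb in the mock library.

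**Figure D1:**
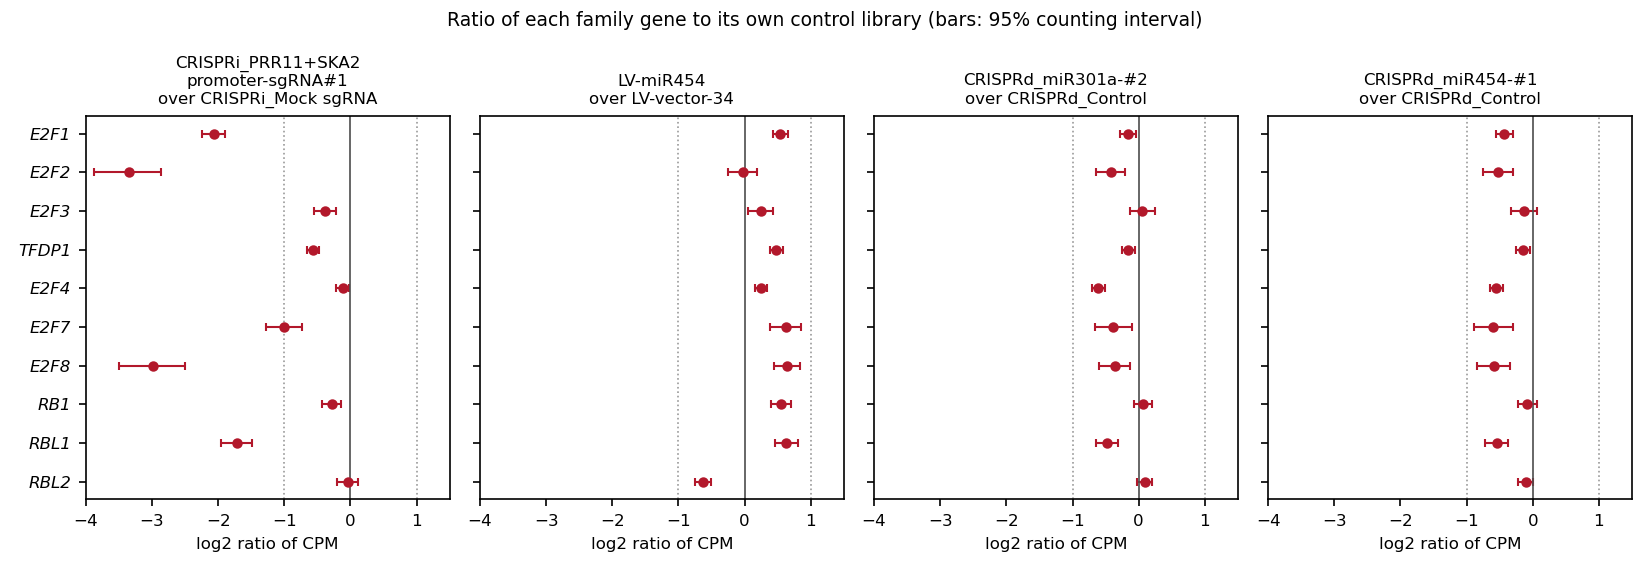
Log2 ratio of CPM of each family gene in 4 treated libraries over their own controls, with the 95% counting interval and dotted lines at 2-fold. In the CRISPRi panel E2F2 is 10.2-fold and E2F8 7.89-fold lower, in the LV-miR454 panel RBL2 alone has its interval below equality, and in both CRISPRd panels E2F3, RB1 and RBL2 have intervals that hold equality.

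The promoters of the family are shown because several members are themselves regulated by E2F. Windows of 250 bases before the annotated start came from RefSeq (GRCh38.p14), and 9 of the 10 members matched by symbol, all but E2F8, with 11 entries in all. The words searched were TTTCCCGC, TTTCGCGC, TTTGCCGC and TTTGGCGC on either strand. They stood in 5 of the 9 members with an entry and in 2.79% of all 35116 promoters of that table. The stretches that hold them follow, 5′ to 3′ on the strand of the gene, with the words in capitals.
E2F1 (chr20:33686386-33686448, minus strand): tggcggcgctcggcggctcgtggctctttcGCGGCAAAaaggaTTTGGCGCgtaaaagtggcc
E2F2 (chr1:23531238-23531305, minus strand): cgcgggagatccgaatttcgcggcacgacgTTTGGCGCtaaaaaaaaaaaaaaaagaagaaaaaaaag
E2F3 (chr6:20401796-20401863, plus strand): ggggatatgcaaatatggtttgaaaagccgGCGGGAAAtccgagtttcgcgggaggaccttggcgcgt
TFDP1 (chr13:113584603-113584670, plus strand): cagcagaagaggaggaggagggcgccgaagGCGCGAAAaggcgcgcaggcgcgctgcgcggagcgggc
RBL1 (chr20:37095998-37096053, minus strand): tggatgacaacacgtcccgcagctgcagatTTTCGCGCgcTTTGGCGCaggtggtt
E2F1 carried words 26 and 13 bases before its start and RBL1 carried them 19 and 9 bases before its start, and these were the members with a pair of words. E2F2 had 1 word at 35 bases, E2F3 at 46 and TFDP1 at 113. Of the 5 genes with a word, E2F1, E2F2 and RBL1 were called lower in the CRISPRi library, while E2F3 and TFDP1 were 1.301-fold and 1.48-fold lower. None of the 4 words was found in the windows of E2F4, E2F7, RBL2 or RB1, and the RB1 entry belongs to a start inside the gene. The words TTTGAA and TTCGAA, the core of the element bound by MuvB, were found in 1 member, E2F3, and in 14.3% of all promoters. A match describes the letters of the window and not binding in these cells.

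Genes around the family were lower too in the CRISPRi library. Of 34 listed E2F targets of G1/S and DNA replication, 0 were called higher and 28 lower, and the median was -1.70 on the log2 scale. MCM10, a replication initiation factor, had 8.39 CPM in the CRISPRi library against 63.1 CPM in the mock library, and ORC1, the large subunit of the origin recognition complex, had 6.08 against 33.0 CPM. Of 28 targets of B-MYB and FOXM1 in G2 and mitosis, 27 were called lower and 0 higher, with a median of -1.62, and the proliferation marker MKI67 was at -2.37. In the MuvB group of 9 genes, 3 were called lower: MYBL2 (B-MYB) at -2.12, FOXM1 at -1.71 and the core subunit LIN9 at -1.56.

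Most measured regulators of the pocket proteins lay below their mock level. On the log2 scale 8 of 9 measured kinase and cyclin genes lay below 0 (median -0.89), and so did 3 of 4 measured inhibitors (median -0.76). Of 9 measured cyclins, their kinases and the phosphatase CDC25A, 4 were called lower, namely CDC25A, which activates CDK2 (-2.09), cyclin A2 (CCNA2, -1.89), cyclin E2 (CCNE2, -1.07) and CDK2 itself (-1.06). Cyclin D1 (CCND1) stood at 624.4 CPM in the CRISPRi library against 418.4 CPM in the mock library, 0.58 on the log2 scale and short of a call. The inhibitor p21 (CDKN1A) had 708.5 CPM in the CRISPRi library against 202.5 CPM in the mock library and was called higher at 1.80. The inhibitor p18 (CDKN2C) was called lower at -1.46, while p27 (CDKN1B) stood at 0.508 times its mock level and was not called. CDKN2A had 0 to 6 counts and CDKN2B 0 to 1 counts in the 13 libraries. Of 7 measured genes of cell death known as E2F targets, BBC3 (1.45) and PMAIP1 (1.10), which p53 also drives, were called higher and 0 lower. E2F5, E2F6 and TFDP2, the relatives outside the family list, were not called, with a median of -0.57.

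Summed markers of other cell types were also higher in the CRISPRi library, while single genes went either way. Of 6 measured fibroblast markers 5 were called higher, and the list summed to 37.3 CPM in the CRISPRi library against 12.8 CPM in the mock library. The mock library had 0 counts of COL1A2, FAP and POSTN. Immune markers summed to 85.8 CPM in the CRISPRi library against 34.4 CPM in the mock library, with 2 of 4 measured called higher. The other 2 measured lay below 0 on the log2 scale, and CD3E and MS4A1 had 0 counts in both libraries. Markers of the HEK293 line, which is used to make lentivirus, summed to 373.2 CPM in the CRISPRi library against 153.5 CPM in the mock library. Of the 7 measured, 3 were called higher and 2 lay below 0 on the log2 scale. The A549 markers summed to 38619 CPM in the CRISPRi library against 38688 CPM in the mock library, with KRT19 (2.62) and TGM2 (2.15) called higher. Yet 8 of these 12 lay below 0 on the log2 scale, 0 were called lower, and the list median was -0.43, against -0.04 over all measured genes. The part of these in the family's values was not tested.

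**Figure D2:**
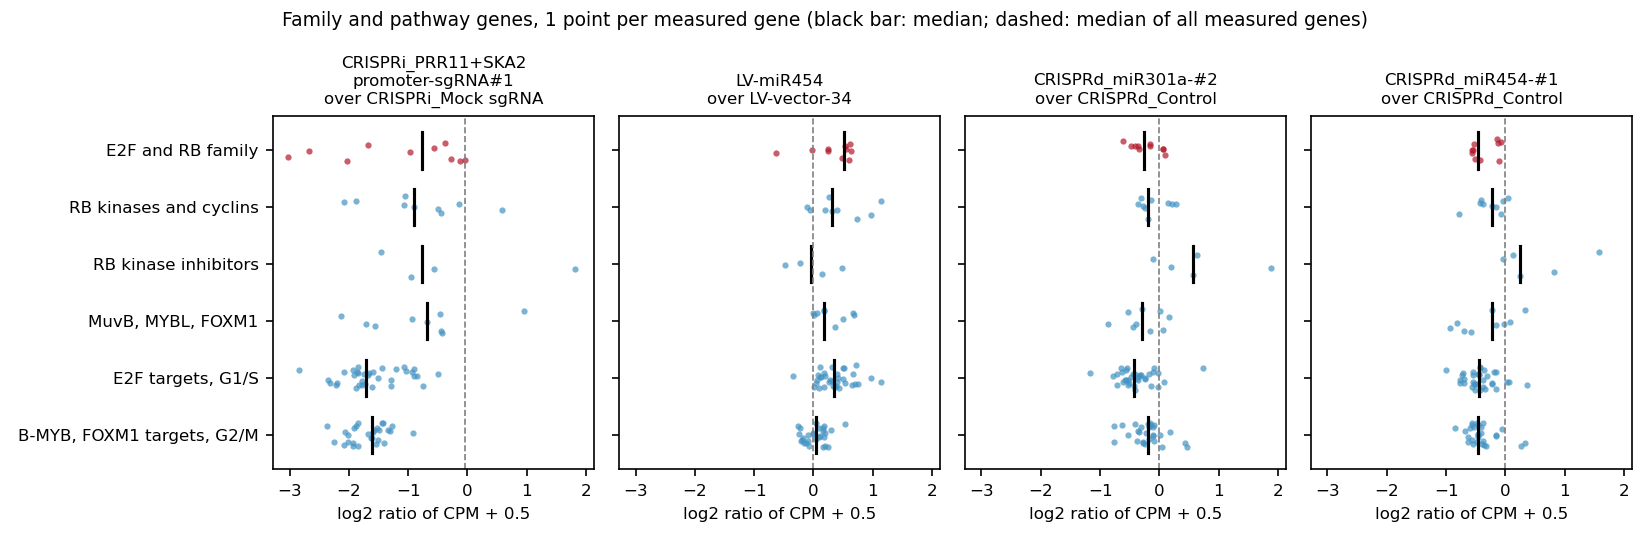
Log2 ratio of CPM plus 0.5 for the family (red) and 5 pathway lists (blue) in 4 comparisons, 1 point per measured gene, with the list median as a black bar and the median of all measured genes as a dashed line. In the CRISPRi panel the G1/S list has its median at -1.70 and the G2 and mitosis list at -1.62, while in the LV-miR454 panel the family median is 0.51 and that of the G2 and mitosis list 0.04.

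MiR-301a and miR-454 belong to one seed family, so their mature sequences are shown with bases 2 to 8 in capitals (RefSeq, GRCh38.p14).
hsa-miR-301a-3p (chr17:59151149-59151171, minus strand): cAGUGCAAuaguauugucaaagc
hsa-miR-454-3p (chr17:59137787-59137809, minus strand): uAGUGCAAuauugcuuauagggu
The shared seed AGUGCAA pairs with TTGCACT in a messenger RNA. In the longest annotated 3′ UTR (GENCODE 29, GRCh38), a site was that word or TGCACTA, which lacks its first base and ends in A. A site stood in 2 of the 10 members, as TTGCACT in each, and in 17.3% of 19132 genes, as either word. The sites are given as DNA with the word in capitals, and the coordinates are those of the word.
E2F2 (chr1:23509285-23509291, minus strand): tagaatgctaaTTGCACTtaggcctcatgg
E2F7 (chr12:77021464-77021470, minus strand): tgcttatcttaTTGCACTgctagttgtatg
A word match is a description and not a measured target.

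In LV-miR454 the family stood mostly above its vector control, opposite in sign to the CRISPRi library, with 1 pocket protein below it. E2F1 had 79.7 CPM in LV-miR454 against 54.7 CPM in LV-vector-34, a ratio of 1.46 (1.35 to 1.58). TFDP1 had 107.4 CPM against 77.0 CPM in LV-vector-34 (1.40, 1.304 to 1.49), and E2F3 had 27.5 against 23.2 CPM (1.18, 1.04 to 1.34). E2F2, which holds a seed word, had 18.2 CPM in LV-miR454 against 18.5 CPM in LV-vector-34, and its interval held equality (0.981, 0.843 to 1.14). E2F7, the other gene with a seed word, had 20.4 CPM in LV-miR454 against 13.3 CPM in LV-vector-34 (1.54, 1.31 to 1.81). The other atypical member, E2F8, had 26.9 CPM in LV-miR454 against 17.3 CPM in LV-vector-34 (1.56, 1.35 to 1.80), and E2F4 had 116.2 against 97.7 CPM (1.19, 1.12 to 1.27).

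The pocket proteins parted in LV-miR454. RBL1 had 36.4 CPM in LV-miR454 against 23.5 CPM in LV-vector-34 (1.55, 1.37 to 1.75), and RB1 had 49.0 against 33.4 CPM (1.46, 1.32 to 1.62). RBL2, the pocket protein of quiescent cells, had 46.0 CPM in LV-miR454 against 71.3 CPM in LV-vector-34, 1.55-fold lower (1.42 to 1.69). RBL2 made up 36.1% of the pocket protein level per kb in LV-miR454 against 56.7% in LV-vector-34, while RB1 made up 39.3% against 27.2% and RBL1 24.6% against 16.1%. None of the 10 was called at 2-fold in either direction, where 2.98% of all measured genes were called higher and 3.43% lower. The intervals of 8 members lay above equality, against 28.8% of all measured genes, and that of 1 lay below, against 28.6%. The family median was 0.51, and that of all measured genes lay within 0.01 of 0. CRISPRd_Control, another A549 control normalised with these libraries, had RBL1 at 35.6, RB1 at 45.4 and E2F4 at 113.7 CPM, near their LV-miR454 levels. Its E2F3 (24.2 CPM), E2F7 (12.9 CPM), E2F8 (17.9 CPM) and RBL2 (69.6 CPM) lay near LV-vector-34. Its E2F1 (66.5 CPM) and TFDP1 (90.7 CPM) lay between the LV-vector-34 and LV-miR454 levels.

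Around the family in LV-miR454, the E2F targets of G1/S had a median of 0.34 with 1 of 34 called higher, which was cyclin E2 (CCNE2, 1.14), and 0 lower. The control library CRISPRd_Control, set against the same LV-vector-34, had a median of 0.21 for this list. The G2 and mitosis targets had 0 of 28 called in either direction and a median of 0.04. The other lists had 0 called, namely the RB kinase inhibitors, the MuvB group, the cell death genes and the relatives E2F5, E2F6 and TFDP2, with the last group at a median of -0.19. Fibroblast markers summed to 82.1 CPM in LV-miR454 against 36.8 CPM in LV-vector-34, with 2 of 3 measured called higher and 1 lower, and FAP had 0 counts in both. Their part in the family's values was not tested.

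Set against the same vector library, the other libraries of this set differed less. In the library labelled LV-miR301a 0 of the 10 were called, against 0.731% of all measured genes, and 3 intervals excluded equality, against 26.0%. E2F1 had 49.2 CPM there against 54.7 CPM in LV-vector-34 (0.900, 0.824 to 0.984), and E2F4 had 91.0 against 97.7 CPM (0.931, 0.872 to 0.994). RB1 had 37.7 CPM there against 33.4 CPM in LV-vector-34 (1.13, 1.01 to 1.26). In the library labelled LV-3+4 0 of the 10 were called, against 0.646%, and 2 intervals excluded equality, against 18.6%. E2F8 had 20.7 CPM there against 17.3 CPM in LV-vector-34 (1.20, 1.03 to 1.39), and RB1 had 38.7 against 33.4 CPM (1.16, 1.04 to 1.29). Fibroblast markers summed to 86.9 CPM in the library labelled LV-miR301a against 36.8 CPM in LV-vector-34, with 2 of 2 measured called higher, so they were as high there as in LV-miR454. RBL2 stood at 75.6 and 75.4 CPM in these 2 libraries, close to its vector level and above its level in LV-miR454.

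E2F2 is the one member that the table of microRNA and CRISPRd libraries lists as 2 entries, its symbol and a numbered copy, which were summed above. Their split differed between libraries. The symbol held 344.21 expected counts and the copy 0 in LV-miR454, against 164.27 and 189.44 in LV-vector-34. The library labelled LV-3+4 had 347.73 and 5.89, and that labelled LV-miR301a had 212.0 and 117.36. CRISPRd_miR301a-#2 had 120.37 and 160.65 and CRISPRd_miR454-#1 had 232.41 and 24.63, against 222.31 and 178.61 in CRISPRd_Control. Read from the symbol alone, E2F2 would be called higher in LV-miR454 and the library labelled LV-3+4, at 1.04 on the log2 scale in each, while the summed values were -0.03 and -0.00. The sources used here do not say what the numbered copy stands for.

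**Figure D3:**
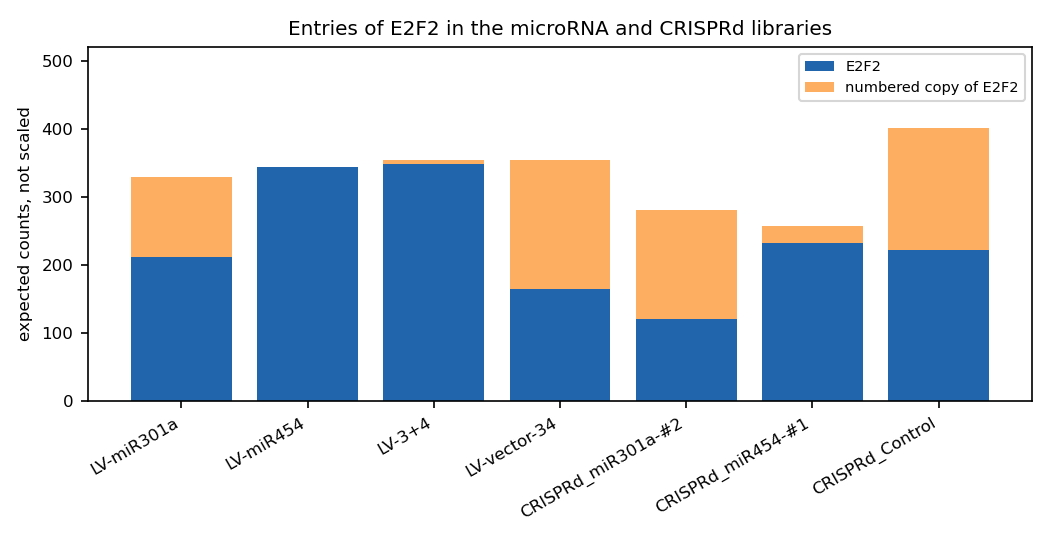
Expected counts (not scaled) of the E2F2 entry in blue and of its numbered copy in orange, stacked, in the 7 microRNA and CRISPRd libraries. The copy holds 189.44 counts in LV-vector-34 and 0 in LV-miR454, while the height of the stack differs far less.

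In both knockout libraries E2F1, E2F2, E2F4, E2F7, E2F8, TFDP1 and RBL1 were lower than in CRISPRd_Control, while the intervals of E2F3, RB1 and RBL2 held equality. E2F4 had 74.5 CPM in CRISPRd_miR301a-#2 and 77.5 CPM in CRISPRd_miR454-#1, against 113.7 CPM in CRISPRd_Control, ratios of 0.655 (0.612 to 0.701) and 0.681 (0.637 to 0.729). RBL1 had 25.5 and 24.4 CPM in the same knockouts against 35.6 CPM in CRISPRd_Control, ratios of 0.717 (0.637 to 0.807) and 0.685 (0.607 to 0.773). Both genes were at like levels in the knockouts, below their shared control. E2F2 had 15.1 and 14.1 CPM against 20.3 CPM in CRISPRd_Control, ratios of 0.745 (0.637 to 0.870) and 0.694 (0.591 to 0.814). E2F7 had 9.86 and 8.51 CPM against 12.9 CPM in CRISPRd_Control, ratios of 0.766 (0.630 to 0.930) and 0.661 (0.537 to 0.810). E2F8 had 13.96 and 11.9 CPM against 17.9 CPM in CRISPRd_Control, ratios of 0.778 (0.660 to 0.916) and 0.664 (0.558 to 0.788). E2F7, which holds a seed word, was lower in both knockouts. For E2F2, the other gene with one, this rests on summing its 2 entries: the symbol alone gave -0.75 in CRISPRd_miR301a-#2 and 0.17 in CRISPRd_miR454-#1 on the log2 scale, so the direction turned in the second.

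E2F1 differed more in 1 knockout than in the other. It had 59.5 CPM in CRISPRd_miR301a-#2 and 49.4 CPM in CRISPRd_miR454-#1, against 66.5 CPM in CRISPRd_Control, ratios of 0.896 (0.826 to 0.971) and 0.743 (0.682 to 0.809). TFDP1 had 81.3 and 81.8 CPM against 90.7 CPM in CRISPRd_Control, ratios of 0.896 (0.836 to 0.960) and 0.902 (0.841 to 0.967). None of the 10 was called in CRISPRd_miR301a-#2, where 6.72% of all measured genes were called higher and 4.15% lower, or in CRISPRd_miR454-#1, where 6.60% were called higher and 3.10% lower. The interval lay below equality for 7 of the 10 in each knockout, against 32.2% of all measured genes in CRISPRd_miR301a-#2 and 31.6% in CRISPRd_miR454-#1. The family medians were -0.25 and -0.47 in these libraries, which share their control.

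Part of this rests on which control library is used. CRISPRd_Control and LV-vector-34 are both A549 controls of the same table, and RBL1 was 1.52 times as high in CRISPRd_Control (1.34 to 1.71), RB1 1.36 times (1.23 to 1.505), E2F1 1.22 times (1.12 to 1.32), TFDP1 1.18 times (1.10 to 1.26) and E2F4 1.16 times (1.09 to 1.24). Between these controls 0 of the 10 were called, against 4.35% of all measured genes, and 5 intervals lay above equality, against 25.9%. Set against LV-vector-34, E2F4 stayed lower in CRISPRd_miR301a-#2 and CRISPRd_miR454-#1, at -0.39 and -0.33 on the log2 scale. The same held for E2F7 at -0.41 and -0.61, E2F8 at -0.30 and -0.52, and E2F2, with its entries summed, at -0.28 and -0.38, each with an interval that excluded equality. RBL1 stood at 0.12 and 0.05 and TFDP1 at 0.08 and 0.09, with intervals that held equality, and E2F1 stood at 0.12, with equality inside its interval, and -0.15, with equality outside it. RBL2 stood at 0.05 with an interval that held equality and at -0.14 with one below it. RB1 stood at 0.50 and 0.36 with intervals above equality.

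Around the family in the knockouts, the inhibitor p27 (CDKN1B) was the one called gene among those that act on RB. It had 134.6 CPM in CRISPRd_miR301a-#2 and 108.6 CPM in CRISPRd_miR454-#1, against 36.0 CPM in CRISPRd_Control, and LV-vector-34 had 55.1 CPM. The E2F targets of G1/S had medians of -0.43 and -0.45, with 1 of 34 called lower in CRISPRd_miR301a-#2, the DNA methylation cofactor UHRF1 at -1.18, and 0 in CRISPRd_miR454-#1. Their control was itself above the other control for this list: CRISPRd_Control over LV-vector-34 had a median of 0.21, with 1 of 34 below 0. The G2 and mitosis targets had medians of -0.19 and -0.46 with 0 of 28 called in either. Of the cell death genes, TP73 was called lower in CRISPRd_miR454-#1 at -1.10. Immune markers summed to 132.5 CPM in CRISPRd_miR301a-#2 and 164.9 CPM in CRISPRd_miR454-#1 against 53.8 CPM in CRISPRd_Control, with CD3E and MS4A1 at 0 counts in all 3. Of those measured, 3 of 4 were called higher in CRISPRd_miR301a-#2 and 2 of 3 in CRISPRd_miR454-#1, and 0 lower in either. The A549 markers summed to 40682 and 44640 CPM in these knockouts against 28565 CPM in CRISPRd_Control, with 3 of 12 called higher and 1 lower in each. Fibroblast markers summed to 11.7 and 16.2 CPM against 19.6 CPM in CRISPRd_Control, with 1 of 2 measured called lower in each, and FAP at 0 counts in all 3. HEK293 markers summed to 118.5 and 140.0 CPM against 128.3 CPM in CRISPRd_Control. The part of these markers in the family's values was not tested.

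Lentivirus with PRR11 and SKA2 came with near-control levels of the whole family. In LV-PRR11 0 of the 10 were called, against 0.299% of all measured genes, and 1 interval excluded equality, against 12.9%. That gene was E2F7, with 15.1 CPM in LV-PRR11 against 12.2 CPM in LV-vector-PS (1.24, 1.04 to 1.48). In the library labelled LV-SKA2 0 were called, against 0.252%, and 0 intervals excluded equality, against 20.8%. In the library labelled LV-P+S 0 were called, against 0.261%, and 1 interval excluded equality, against 12.2%. That gene was E2F8, with 10.4 CPM there against 13.5 CPM in LV-vector-PS (0.770, 0.636 to 0.931). E2F1 had 56.3, 62.3 and 59.1 CPM in LV-PRR11, the library labelled LV-SKA2 and the library labelled LV-P+S, against 59.4 CPM in LV-vector-PS, and its intervals held equality. RBL2 had 76.5, 77.0 and 80.1 CPM in the same libraries against 79.6 CPM in LV-vector-PS. Family medians lay between -0.01 and 0.02 on the log2 scale, and 0 genes of the 7 pathway lists were called in the 3 comparisons.

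The genes most like 3 family members over all 13 libraries were found among 10219 genes with a mean of at least 5 CPM in each table. Likeness was the root mean square difference of log2(CPM plus 0.5) after centring within each table, so a smaller value means a closer course. For E2F1 and E2F2 most of the deviation from the table means came from the CRISPRi pair, at log2 ratios of -2.03 and -3.03. That pair therefore weighed most in their likeness. Nearest to E2F1 were FANCA, a Fanconi anaemia DNA repair gene, at 0.0706, FAM83D at 0.0914, the G2 and S phase gene GTSE1 at 0.0927 and CCNA2 at 0.0971, with a median of 0.441 over all genes. FANCA had 11.1 CPM in the CRISPRi library against 48.9 CPM in the mock library. Nearest to E2F2 were MCM10 at 0.143, the kinesin KIF18B at 0.156, the condensin subunit NCAPH at 0.159 and the helicase BLM at 0.160, with a median of 0.605. Both medians lie near the member's own deviation from its table means, 0.4324 for E2F1 and 0.6065 for E2F2. Nearest to RBL2 were ZNF740 at 0.0605, HECTD4 at 0.0614, XYLT2 at 0.0625 and TM9SF4 at 0.0642, with a median of 0.249. RBL2 itself deviated by only 0.172, and within its table it was lowest in LV-miR454. There ZNF740 had 21.2, HECTD4 46.8, XYLT2 46.2 and TM9SF4 78.2 CPM. In LV-vector-34 these genes had 35.2, 63.8, 66.8 and 107.6 CPM, so that 1 library weighed in their likeness.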

How the data were processed

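Poly(A) RNA from 13 A549 cultures, 1 per group, was sequenced. RSEM 1.3.3, Bowtie2 2.3.5.1 and the build GRCh38.p13 are named in the submitters' processing notes, while the sources used here give neither annotation nor strand setting. The values the authors deposited, in 3 tables, are RSEM's expected counts, unnormalised and not always whole, and they were rounded here. For the CRISPRi libraries 181 entries without a name, 0.431% of counts in the CRISPRi library and 0.355% in the mock library, were left out. For the microRNA and CRISPRd libraries 4840 numbered copies of a symbol, 2.02% of counts, were summed into that symbol.

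Library sizes were scaled by TMM within each table (R 4.3.3, edgeR 4.0.16). Genes counted as measured in a pair with at least 20 reads over both libraries and at least 1 CPM in either. Folds are plain CPM ratios with exact (Clopper-Pearson) 95% intervals, and log2 values use a pseudocount of 0.5, which understates changes of low genes. The labels name no molecular identifiers and reads may be copies of 1 molecule, so intervals cover counting error only. No p-value was computed. Named genes were all members, targets of each library, up to 4 called genes per list and the 4 nearest genes to E2F1, E2F2 and RBL2. Other genes were named to describe a list. The members, lists and rules were chosen with earlier results of these data known. The size rule was tested on simulated data with counting (Poisson) noise only. That simulation held no variation between cultures, so it cannot show how often cultures of 1 kind would give a call. Alternatives covered scaling (total counts, DESeq2 1.42.0 size factors, genes shared by the tables), the pseudocount, the filter, the fold, the numbered copies and the control library. Sequences came from RefSeq GRCh38.p14 and GENCODE 29. Python 3.11.15 with scipy 1.17.1 was used.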

Additional observations from a re-analysis of the deposited data

How the results depend on the processing

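Of 820 recomputed log2 ratios of family genes, 0 called values changed sign, 800 moved by less than their counting interval and 20 moved by more. Some of the 800 were fixed in advance. No filter and the filter of 5 CPM, at 100 values each, cannot change a ratio. Leaving numbered copies out cannot change one in the CRISPRi or the PRR11 and SKA2 libraries, which list 0 copies. Of these 20, 10 came from LV-vector-34 as the control of the knockouts and 6 from leaving the numbered copy of E2F2 out. A further 2 came from a pseudocount of 2, which gave E2F2 -2.40 and E2F8 -2.10 in the CRISPRi library, and 2 from scaling by total counts, which gave TFDP1 -0.26 and E2F4 -0.66 in CRISPRd_miR454-#1 and shifted the median of all genes there by -0.11. The CRISPRi library had 4 members called under every alternative run except a 1.5-fold threshold, which gave 5. Its count of members with an interval below equality was 9, and 8 with total counts, DESeq2 size factors or TMM on the genes shared by the tables. The other comparisons had 0 members called. With a 1.5-fold threshold the count was 4 in LV-miR454, 1 in CRISPRd_miR301a-#2 and 1 between the controls. Those in LV-miR454 were E2F7, E2F8 and RBL1, higher, and RBL2, lower. The share of all measured genes called at 1.5-fold was not computed, so the counts at that threshold, with the 5 of the CRISPRi library, have no background beside them. With the numbered copies left out it was 1 in LV-miR454 and 1 in the library labelled LV-3+4, E2F2 in each. No paired analysis was possible because each group is 1 library, and for the same reason no replicate could be left out. Depth limits E2F2 and E2F8 in the CRISPRi library, with 38 and 40 counts.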
